A study of Mus musculus with 6 samples.

Results

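The genes described are 8 claudins of epithelia, Cldn1, Cldn2, Cldn3, Cldn4, Cldn7, Cldn8, Cldn10 and Cldn12, together with occludin (Ocln). They are the members of a list of epithelial junction genes that leaves out Cldn5, the claudin of blood vessel endothelium, and every probe set whose annotated gene symbol was exactly one of these 9 names was taken, whatever its values. This gave 18 probe sets of the 45037 tested, and 9 genes of the 18193 that the arrays name through a probe set with a single symbol. The members are mouse genes measured in mammary epithelial organoids, the pieces of duct and alveolus that remain when the gland is digested.

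Affymetrix mouse arrays, on which probe sets lie mostly near the 3' end of a transcript, were hybridised with total RNA of 6 mice, 1 mouse per array. KO5, KO6 and KO7 came from the 3 Wwox KO mice, which carried BK5-Cre and 2 floxed alleles of Wwox (BK5-cre +; WWOX flox/flox). WT1, WT2 and WT3 came from the 3 WT mice, which had the same floxed alleles and no Cre (BK5-cre -; WWOX flox/flox). All 6 mice were 8 weeks old, and the labels give their background as a mix of 129/J and C57BL/6. Cre is under a bovine keratin 5 promoter, which the study describes as active from fetal life, and keratin 5 is made by the basal cells of many epithelia besides the mammary one. As only the KO mice carried Cre, an effect of Cre and an effect of Wwox loss cannot be told apart. The arrays measure the whole organoid preparation, in which fewer cells of a type and less RNA per cell cannot be told apart.

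Tight junctions are the seals between neighbouring epithelial cells, close to their luminal face. Claudins span the membrane several times and meet claudins of the next cell to form the strands of the seal. Some, such as Cldn1 and Cldn3, are known for closing the space between cells, while Cldn2 and Cldn10 form pores through which small ions pass, and occludin joins the strands without being needed to build them. In the mammary gland Cldn3, Cldn4 and Cldn7 are luminal claudins, and their loss defines a class of breast tumours, the claudin-low tumours.

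The promoters are shown because transcription factors that silence epithelial junction genes, those of the Snail and ZEB families, bind the E-box CAGGTG. The 250 bases before each annotated start were searched on both strands for CAGGTG, for the GC box GGGCGG of the Sp1 family, and for TTCNNNGAA, the core of STAT binding sites. The sequences are those of RefSeq on build GRCm38.p6, which held 13 such windows for 8 of the 9 members, all but Cldn8. CAGGTG was in 3 of the 13 windows, those of Cldn4, Cldn7 and Ocln, against 17.2% of the 32851 windows of all genes. GGGCGG was in 9 windows of 7 genes, against 32.7% of all windows. TTCNNNGAA was in 3 windows, of Cldn12 and Cldn7, against 7.02% of all. These are matches of letters and not measured binding sites, and the 2 or 3 windows of a gene can overlap.

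Cldn3 and Cldn4 are neighbours on chromosome 5, on opposite strands, and their values followed the same order over the WT arrays. Their windows are printed 5′ to 3′ on the strand of the gene, with capitals on each match to CAGGTG or GGGCGG on either strand (CACCTG and CCGCCC on the other strand). The Cldn3 window lies at chr5:134985964-134986213 on the plus strand and the Cldn4 window at chr5:134946935-134947184 on the minus strand.
Cldn3: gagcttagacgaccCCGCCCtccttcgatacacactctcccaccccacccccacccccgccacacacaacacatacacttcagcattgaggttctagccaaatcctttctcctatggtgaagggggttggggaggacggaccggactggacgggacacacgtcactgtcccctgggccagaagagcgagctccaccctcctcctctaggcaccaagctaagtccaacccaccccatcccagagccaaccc
Cldn4: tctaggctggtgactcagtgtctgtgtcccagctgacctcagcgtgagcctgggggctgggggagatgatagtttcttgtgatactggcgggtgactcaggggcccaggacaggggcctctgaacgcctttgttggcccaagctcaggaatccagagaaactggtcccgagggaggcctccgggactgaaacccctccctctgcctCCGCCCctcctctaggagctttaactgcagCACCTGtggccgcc
Both hold a single GC box, and of the pair only Cldn4 holds an E-box, a few bases before its start.

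For Cldn7 and Ocln the 30 bases around each E-box are printed in the same way, with the E-box in capitals. They were chosen because they hold the motif. Those of Cldn7 lie at chr11:69965312-69965341 and chr11:69965352-69965381 on the plus strand, with 91 and 51 bases between the E-box and an annotated start. Those of Ocln lie at chr13:100552694-100552723 and chr13:100552549-100552578 on the minus strand, with 207 and 62 bases between the E-box and a start.
Cldn7, distal: tttcttcctcttCACCTGgacgaggagggg
Cldn7, proximal: agacttccggttCAGGTGagtgtcccttca
Ocln, distal: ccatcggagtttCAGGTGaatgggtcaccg
Ocln, proximal: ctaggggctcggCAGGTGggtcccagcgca
Each gene thus carried the E-box at a pair of places in 1 window, with different flanking bases.

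The deposited values are log2 values made with RMA, a method that corrects the background, brings the arrays to a common distribution and gives each probe set 1 value. KO was compared with WT with limma across all probe sets, a difference is the KO mean minus the WT mean on the log2 scale, and an adjusted p is that of limma with the Benjamini-Hochberg method over all 45037 probe sets. A call required an unadjusted p under 0.01 together with a change of at least 2-fold. The number of arrays limits the precision. Wwox checked the labels. Its brightest probe set was at 6.23, 5.87 and 5.96 on KO5, KO6 and KO7, against 7.77, 7.63 and 7.72 on WT1, WT2 and WT3, and it fell by 1.69 (adjusted p = 0.0228); where its probes lie relative to the floxed exon was not examined.

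RNA quality was read from control transcripts that the arrays probe near both ends. For Gapdh, the 3' probe set minus the 5' one was 0.40, 0.56 and 0.46 (log2) on KO5, KO6 and KO7, against 0.95, 2.41 and 1.79 on WT1, WT2 and WT3. That of β-actin was 0.71, 0.63 and 0.63 on the KO arrays, against 0.98, 1.85 and 1.82 on the WT arrays. No WT array overlapped with KO for either, all WT values being higher, and WT1 lay nearest to KO. The transferrin receptor was at 1.81, 1.81 and 1.6 on the KO arrays, against 2.09, 2.05 and 1.95 on the WT arrays, with WT3 nearest to KO. Pyruvate carboxylase overlapped and ran the other way, at 3.21, 2.83 and 2.45 on the KO arrays and 1.77, 1.91 and 3.0 on the WT arrays, with WT1 farthest from KO. The tissue label was checked on Epcam, Cdh1 and the keratins Krt7, Krt8, Krt18 and Krt19, markers of mammary epithelium, which were bright on all arrays and none of which was called. Their mean level lay at 13.68 to 13.82 on KO arrays and 13.41 to 13.75 on WT arrays.

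None of the 18 claudin and occludin probe sets passed the call limits in limma, against 1.99% of all probe sets tested. At an unadjusted p under 0.05, 2 of the 18 were higher in KO, of Cldn1 and Cldn3, where 9.54% of all probe sets were higher. A further 4 were lower, of Cldn2, Cldn8 and both probe sets of Ocln, where 9.74% of all were lower. The smallest adjusted p was 0.131, of Ocln. All 3 KO arrays lay above all 3 WT arrays for 1 of the 18 probe sets, against 10.7% of all, and below them for 3, against 13.6% of all, while the groups overlapped for the other 14. Of the 18, 10 differences were above 0 and 8 below. Their median was 0.10 and their median size 0.38, beside -0.034 and 0.17 over all probe sets. The members were brighter than the rest, as 4 of the 18 had a mean under 6, against 25712 of all 45037. No comparison was made with probe sets of like brightness. The shares and medians over all probe sets thus cannot show whether the claudins changed more or less than others. Several probe sets measure the same gene, so the 18 differences are not independent values. On the brightest probe set of each gene, 5 genes were higher and 4 lower, and 3 had an unadjusted p under 0.05, Cldn2, Cldn8 and Ocln, all lower.

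**Figure D1:**
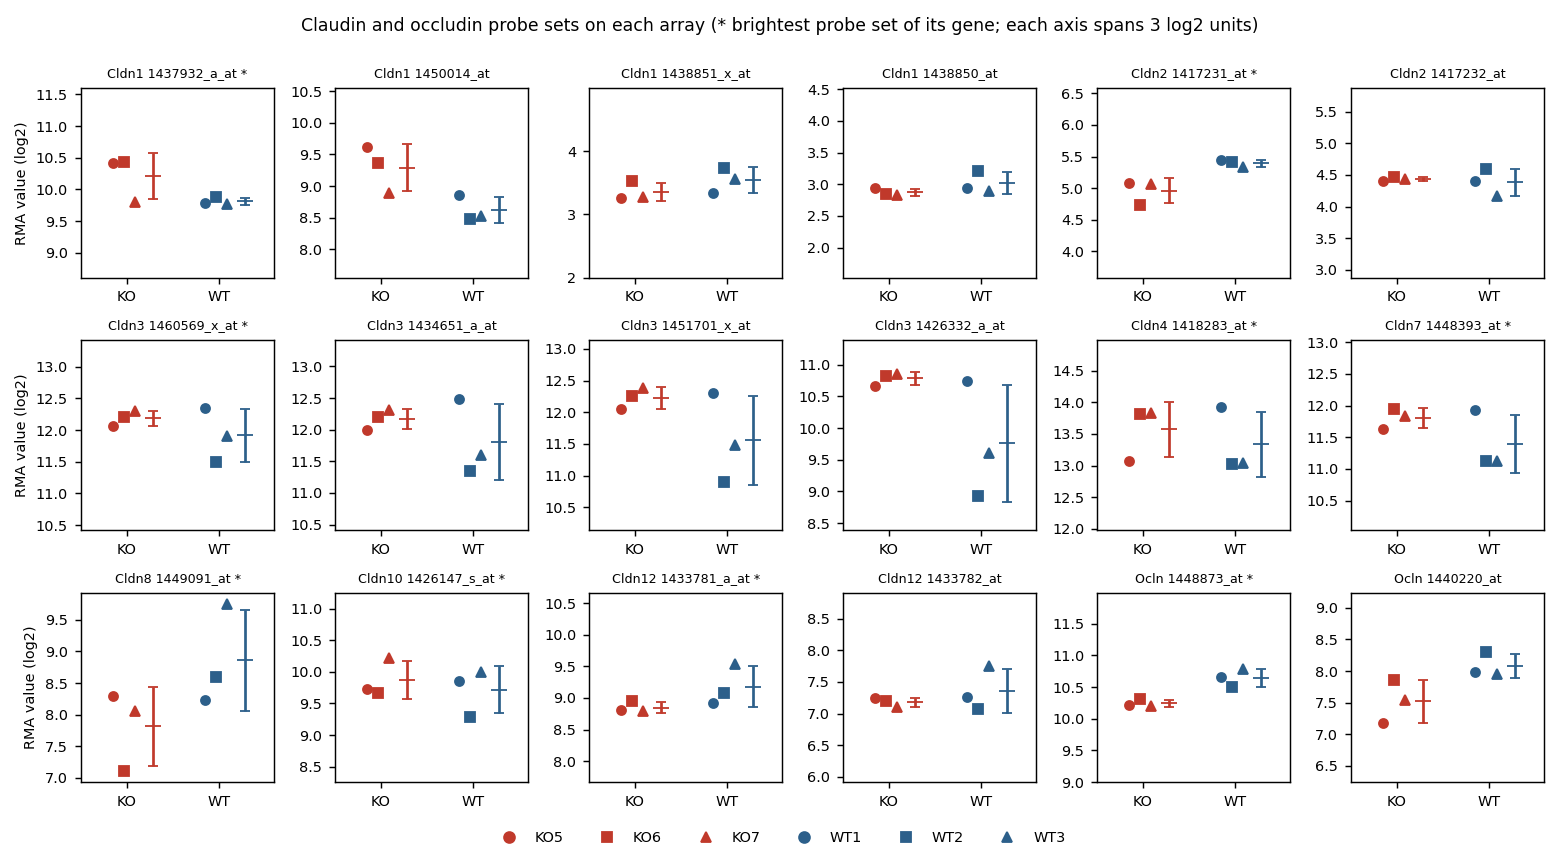
RMA log2 values of the 18 claudin and occludin probe sets on the 3 KO arrays (left, red) and 3 WT arrays (right, blue) with the mean and SD of each group; a star marks the brightest probe set of a gene and every panel spans 3 log2 units. Ocln and the brighter Cldn2 probe set lay lower on all KO arrays, while the Cldn3, Cldn4 and Cldn7 values of WT1 lay among or above those of KO.

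Occludin, a membrane protein of the tight junction strand with a MARVEL domain, had the smallest p of the members. Its brightest probe set, 1448873_at, was at 10.22, 10.31 and 10.21 on KO5, KO6 and KO7, against 10.66, 10.50 and 10.78 on WT1, WT2 and WT3. The groups did not overlap, and the KO arrays lay within a narrow band. The means were 10.25 ± 0.057 in KO and 10.65 ± 0.14 in WT (SD, n = 3 each), a difference of -0.40 (SE 0.12, 95% interval -0.67 to -0.13, adjusted p = 0.131). The second Ocln probe set, 1440220_at, gave 7.18, 7.86 and 7.53 on the KO arrays and 7.98, 8.30 and 7.96 on the WT arrays. It too separated the groups, with KO6 just below the lowest WT array, and differed by -0.56 (95% interval -1.0 to -0.11, adjusted p = 0.180). Neither reached the 2-fold limit nor an adjusted p under 0.05, but both stayed below 0 in all 17 alternative fits, at -0.55 to -0.33 for the brightest and -0.72 to -0.31 for the other. The unadjusted p of the brightest was 0.00969 in limma, stayed under 0.05 in 15 of the 17, and was 0.0682 and 0.0600 with the 3' minus 5' values of 2 or 4 control transcripts as a covariate. Marveld2, the neighbour of Ocln on chromosome 13 and its relative at the corners where several cells meet, differed by -0.15 (95% interval -0.61 to 0.30, adjusted p = 0.722).

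Cldn2, a pore claudin that lets sodium and water through, was dim. Its brighter probe set, 1417231_at, was at 5.07, 4.73 and 5.07 on KO5, KO6 and KO7, against 5.44, 5.41 and 5.33 on WT1, WT2 and WT3. The KO arrays lay below the WT arrays without overlap. The means were 4.96 ± 0.20 in KO and 5.39 ± 0.059 in WT (SD, n = 3 each), a difference of -0.43 (SE 0.13, 95% interval -0.74 to -0.13, adjusted p = 0.138). Its mean over the 6 arrays was 5.18, under the minimum of 6 used as a filter and below the median of every array, 5.42 to 5.47. The other Cldn2 probe set, dimmer still, differed by 0.046 (95% interval -0.26 to 0.36, adjusted p = 0.886). Cldn10, the other pore claudin, has variants that pass either cations or anions, and its single probe set, 1426147_s_at, can bind more than 1 transcript. It was at 9.73, 9.67 and 10.21 on the KO arrays and 9.85, 9.29 and 10.00 on the WT arrays. The groups overlapped, with a difference of 0.15 (95% interval -0.37 to 0.68, adjusted p = 0.761), and its sign changed in 4 of the 17 alternative fits.

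Cldn8, which helps to bar cations in the distal tubule of the kidney, had the largest difference by size among the members. It was at 8.29, 7.11 and 8.05 on KO5, KO6 and KO7, against 8.23, 8.60 and 9.75 on WT1, WT2 and WT3. KO5 lay just above WT1, and KO6 and WT3 stood away from the other arrays of their groups. The means were 7.82 ± 0.62 in KO and 8.86 ± 0.79 in WT (SD, n = 3 each), a difference of -1.04, or 2.06-fold (SE 0.44, 95% interval -2.07 to -0.012, adjusted p = 0.255). It was -0.59 without WT3, -0.69 without KO6, and -0.43 and -0.39 with the 3' minus 5' difference of 2 or 4 control transcripts as a covariate.

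Cldn1, a sealing claudin best known from skin, where mice without it lose water and die after birth, had 2 bright and 2 dim probe sets. The brightest, 1437932_a_at, was at 10.42, 10.43 and 9.80 on KO5, KO6 and KO7, against 9.78, 9.88 and 9.78 on WT1, WT2 and WT3. KO5 and KO6 lay above every WT array and KO7 among them, and the difference of 0.40 (95% interval -0.024 to 0.83) had an adjusted p of 0.284. It was 0.61 without KO7, with an unadjusted p of 0.00213 in limma, but 0.30 without KO5 and 0.30 without KO6 (unadjusted p = 0.186 and 0.185 in limma). Its unadjusted p was under 0.05 in 3 of the 17 alternative fits. The second, 1450014_at, gave 9.62, 9.37 and 8.89 on the KO arrays and 8.86, 8.48 and 8.53 on the WT arrays, so that every KO array lay higher, KO7 by a small margin over WT1. It averaged 9.29 ± 0.37 in KO and 8.63 ± 0.21 in WT (SD, n = 3 each) and differed by 0.67 (95% interval 0.18 to 1.15, adjusted p = 0.146), or by 0.31 and 0.58 with the 3' minus 5' covariates of 2 or 4 control transcripts. The dim probe sets, with 6-array means of 3.45 and 2.94, differed by -0.19 and -0.14 (adjusted p = 0.522 and 0.581). Their signs changed in 2 and 1 of 16 alternative fits.

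**Figure D2:**
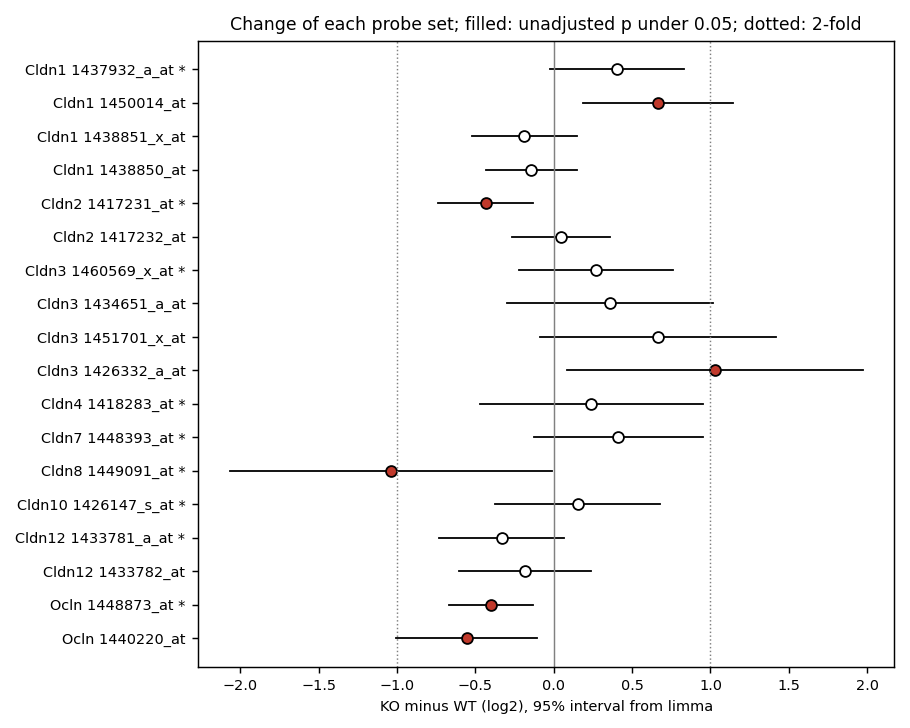
Difference KO minus WT (log2) of each claudin and occludin probe set with limma's 95% interval; filled points have an unadjusted p under 0.05, dotted lines mark 2-fold and a star the brightest probe set of a gene. The intervals of Cldn8 (-2.07 to -0.012) and of Cldn3 1426332_a_at (0.082 to 1.97) were the widest.

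Cldn3, a sealing claudin and a receptor for a toxin of Clostridium, was measured by 4 bright probe sets. They differed by 0.27, 0.36, 0.67 and 1.03, all above 0, with adjusted p of 0.531, 0.531, 0.312 and 0.225. The brightest, 1460569_x_at, was at 12.06, 12.20 and 12.30 on KO5, KO6 and KO7, against 12.34, 11.50 and 11.91 on WT1, WT2 and WT3. The KO arrays lay close together, WT1 was the highest array of all, and WT2 was the lowest. The probe set with the largest difference, 1426332_a_at, was at 10.67, 10.82 and 10.86 on the KO arrays and 10.74, 8.92 and 9.61 on the WT arrays. It averaged 10.78 ± 0.10 in KO and 9.76 ± 0.92 in WT (SD, n = 3 each), a difference of 1.03, or 2.04-fold (SE 0.40, 95% interval 0.082 to 1.97). The SD of the WT arrays was nearly as large as this difference, and their range was larger. The other probe sets, 1434651_a_at and 1451701_x_at, had WT1 at 12.48 and 12.30 and WT2 at 11.35 and 10.90, the same order of WT arrays. Whether the probes of 1460569_x_at and 1451701_x_at also bind other transcripts was not examined.

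Cldn4, which like Cldn3 binds the Clostridium toxin, shared this order. It was at 13.07, 13.82 and 13.83 on KO5, KO6 and KO7, against 13.93, 13.03 and 13.05 on WT1, WT2 and WT3. WT1 was the highest array and KO5 stood with WT2 and WT3, so the groups overlapped almost wholly, and the difference was 0.24 (95% interval -0.47 to 0.95, adjusted p = 0.721). Cldn7, a partner of Epcam along the sides of epithelial cells, was at 11.63, 11.95 and 11.83 on the KO arrays and 11.93, 11.13 and 11.12 on the WT arrays. WT1 again stood with the KO arrays, and the difference was 0.41 (95% interval -0.13 to 0.95, adjusted p = 0.379). The intervals of all 3 genes include a 1.5-fold difference, so equal levels are not shown.

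The values of these 3 luminal claudins depended on single arrays, and Cldn3 probe sets were called only without WT1 or with array weights. Without WT1, 2 of the 4 Cldn3 probe sets were called, 1451701_x_at at 1.04 and 1426332_a_at at 1.52 (limma adjusted p = 0.0304 and 0.0123), and the others differed by 0.48 and 0.70. Cldn4 then differed by 0.54 and Cldn7 by 0.68 (adjusted p = 0.0351), with neither past the 2-fold limit. The share of all probe sets called without WT1 was not counted, so these calls cannot be read as particular to the claudins. With all 6 arrays kept, under weights that limma estimated from the expression values and not from the 3' minus 5' values, 1426332_a_at was called as well, at 1.24. Without WT2 the Cldn3 differences were 0.059 to 0.61, that of Cldn4 0.086 and that of Cldn7 0.28. Without WT3 Cldn4 differed by 0.093 and Cldn7 by 0.27, and without KO5 Cldn4 differed by 0.49. For Gapdh and β-actin, WT1 was also the WT array whose 3' minus 5' difference lay nearest to KO. With the mean of these differences as a covariate, which itself separates the groups, every Cldn3 probe set lay on the other side of 0. The values were -0.46, -0.70, -0.56 and -0.59 (unadjusted p = 0.0812, 0.0216, 0.0601 and 0.0360 in limma). Cldn4 lay there too at -0.63 and Cldn7 at -0.37 (unadjusted p = 0.186 and 0.205 in limma). This covariate had an SD of 0.029 in KO and 0.60 in WT, so its slope rests mainly on the WT arrays. With the mean over 4 control transcripts, which also include the transferrin receptor and pyruvate carboxylase, the values were -0.14, -0.31, -0.046 and 0.12 for Cldn3, -0.43 for Cldn4 and -0.11 for Cldn7. The part of RNA quality in these differences was not tested. The brightest Ocln probe set differed by -0.48 and -0.39 with these covariates (unadjusted p = 0.0682 and 0.0600 in limma), and by -0.39 without WT1. The second Ocln probe set, 1440220_at, differed by -0.31 and -0.52 with the covariates (unadjusted p = 0.418 and 0.106 in limma), and by -0.60 without WT1.

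**Figure D3:**
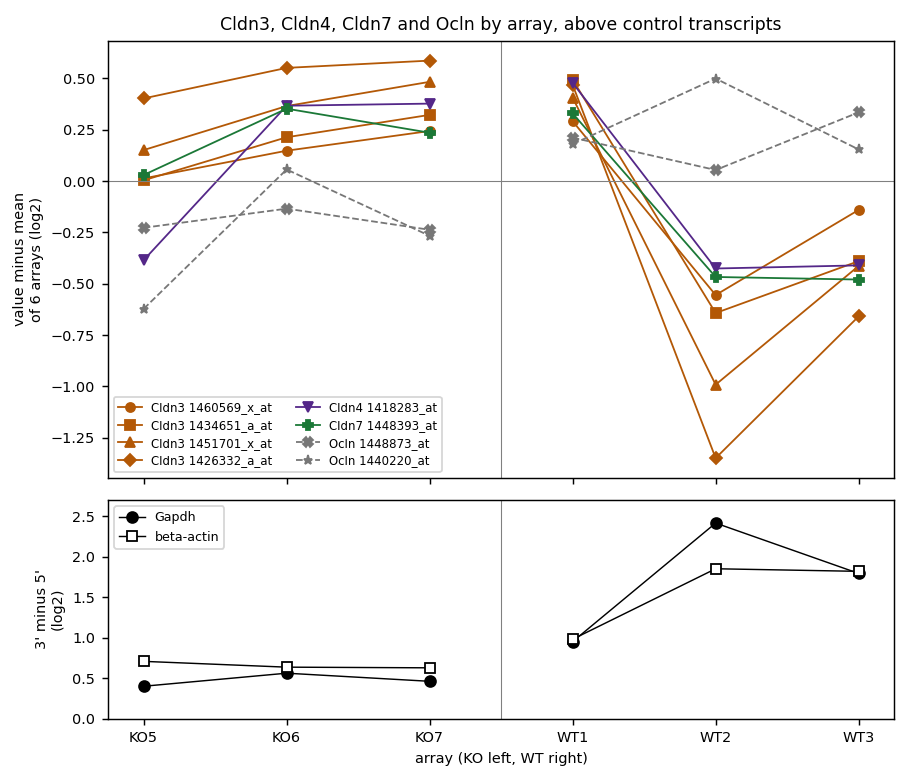
Upper panel, log2 values of Cldn3, Cldn4, Cldn7 and Ocln probe sets on each array (KO left, WT right) minus the probe set's mean over the 6 arrays; lower panel, 3' minus 5' values (log2) of Gapdh and β-actin; lines only join values of 1 probe set. Cldn3, Cldn4 and Cldn7 were high on WT1 and low on WT2 and WT3, the arrays with β-actin at 1.85 and 1.82, while Ocln was above its mean on all WT arrays.

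Cldn12, a claudin that lacks the PDZ-binding tail by which most claudins hold on to scaffold proteins, was at 8.81, 8.94 and 8.79 on KO5, KO6 and KO7, against 8.92, 9.08 and 9.54 on WT1, WT2 and WT3 (1433781_a_at). KO6 lay just above WT1, and WT3 was the highest. The difference was -0.33 (95% interval -0.73 to 0.068, adjusted p = 0.341). It was -0.15 without WT3, and -0.048 and -0.051 with the covariates from 2 or 4 control transcripts. The second probe set, 1433782_at, differed by -0.18 (95% interval -0.60 to 0.24, adjusted p = 0.632).

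**Figure D4:**
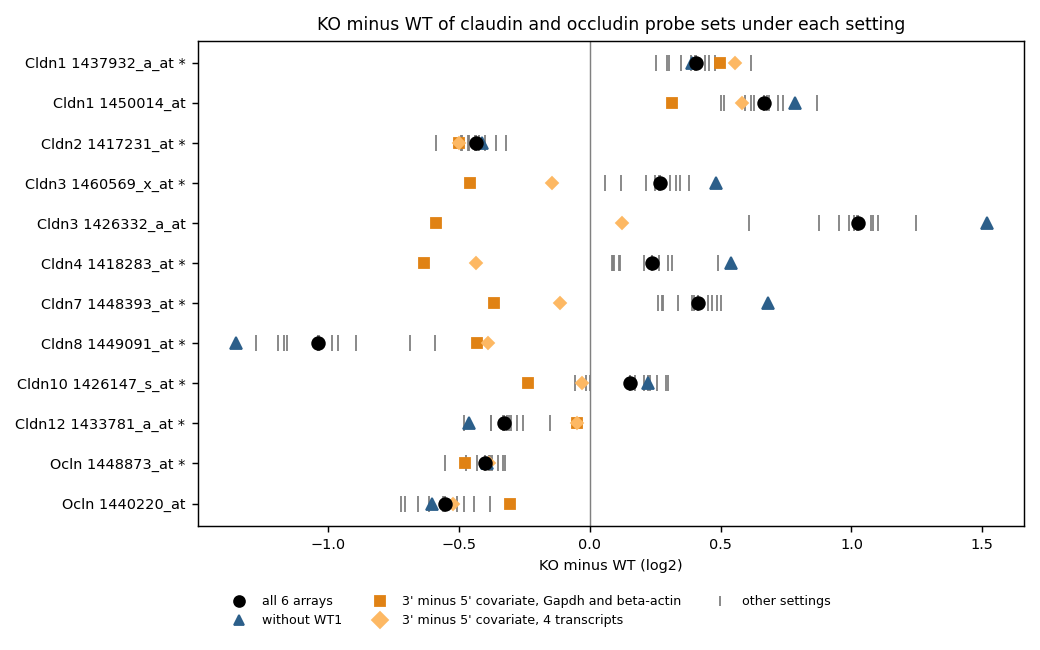
Difference KO minus WT (log2) of the brightest probe set of each gene (starred) and of the further probe sets with an unadjusted p under 0.05, with all 6 arrays (black), without WT1 (triangles), with a 3' minus 5' covariate (squares and diamonds) and under the other alternative fits (ticks). Cldn3, Cldn4, Cldn7 and Cldn10 crossed 0 with the 2-transcript covariate. Ocln, Cldn8 and the plotted probe sets of Cldn2 and Cldn12 stayed below 0 throughout.

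The genes whose pattern over the 6 arrays was most like that of Ocln and Cldn2, the members with the smallest p, were found by the root mean square difference of values centred on each gene's mean. For Ocln they were Pdcd6, a calcium sensor, Cmas, which activates sialic acid, and Atox1, a copper chaperone, at 0.045, 0.047 and 0.048 among 10741 genes compared. They differed between KO and WT by -0.32, -0.32 and -0.36, which follows from their choice by likeness to Ocln. For Cldn2 they were Thoc5, of the THO complex of mRNA export, Dffb, a nuclease of apoptosis, and Phf20l1, a reader of methylated lysines, at 0.032, 0.046 and 0.051 among 10742. No junction gene was among these 6.

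The rest of the junction was read on the brightest probe set of each gene. Of 16 other claudins, 12 were measured, and 1 was called. Cldn5, the endothelial claudin, was at 10.85, 10.61 and 10.80 on KO5, KO6 and KO7, against 9.34, 9.47 and 9.74 on WT1, WT2 and WT3. The groups stood far apart, and Cldn5 rose by 1.24 (SE 0.14, adjusted p = 0.0401). Of the 9 endothelial markers all were higher in KO and 4 had an unadjusted p under 0.05, and their mean deviation from the 6-array mean lay at -0.058 to 0.55 on KO arrays and -0.58 to -0.020 on WT arrays. Their part in the Cldn5 value was not tested. Of the other 11 claudins, 1 higher and 1 lower one had an unadjusted p under 0.05, and the median of the 12 was -0.0090.

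Of 34 listed genes for other membrane proteins, scaffolds and polarity proteins of the tight junction, 32 were measured and none was called in limma, while 5 higher and 3 lower ones had an unadjusted p under 0.05. Their median difference was 0.15. Mpp5, or Pals1, a scaffold of the Crumbs polarity complex, had the smallest p. It was at 9.84, 9.87 and 10.04 on KO5, KO6 and KO7, against 9.43, 9.13 and 8.89 on WT1, WT2 and WT3, without overlap, and differed by 0.77 (adjusted p = 0.0726). Pard6g, an adaptor of the Par polarity complex, differed by -0.46 (adjusted p = 0.105), and Amotl1, an angiomotin that joins junctions to Yap, by 0.66 (adjusted p = 0.142), each with the groups apart. With the 3' minus 5' covariates of 2 or 4 control transcripts Mpp5 differed by 0.40 and 0.45, Pard6g by -0.24 and -0.34, and Amotl1 by 0.21 and 0.27. Tjp1, the scaffold ZO-1 to which claudins attach, differed by 0.21 (95% interval -0.15 to 0.57, adjusted p = 0.505), and F11r, the adhesion molecule JAM-A, by -0.23 (95% interval -0.47 to 0.020, adjusted p = 0.297). Tjp1, F11r and Marveld2 were named as core parts of the junction after their values had been seen.

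Of 5 genes that act on claudin proteins, 4 were measured and none was called, with 1 higher at an unadjusted p under 0.05. Epcam, which binds Cldn7 and steadies it, differed by -0.11 (adjusted p = 0.656). St14, the membrane protease matriptase that cleaves Epcam, differed by 0.48 (adjusted p = 0.244), and its inhibitors Spint1 and Spint2 by 0.30 and -0.084 (adjusted p = 0.637 and 0.718).

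Of 13 transcription factors that act on claudin genes, all were measured, and 1 was called. Zeb2, a repressor of epithelial junction genes that binds the E-box printed above and is also made by stromal cells, was at 7.90, 7.56 and 6.97 on KO5, KO6 and KO7, against 6.67, 5.26 and 5.00 on WT1, WT2 and WT3. WT1 lay just under KO7 and far above the other WT arrays. Zeb2 rose by 1.83 (SE 0.44, adjusted p = 0.0941), and the call was lost without KO5 (1.62), KO6 (1.79), WT2 (1.64) or WT3 (1.51), without moderation of the variance, and with either 3' minus 5' covariate (0.39 and 1.03). Of the 9 endothelial and 8 fibroblast markers, 4 each were higher at an unadjusted p under 0.05, 1 of them called in each list, and none lower, and the fibroblast mean deviation lay at -0.15 to 0.52 on KO arrays and -0.35 to -0.12 on WT arrays. Their part in the Zeb2 value was not tested. Of the other 12 factors, 1, Ovol1, which helps to keep cells epithelial, had an unadjusted p under 0.05, at -0.50 (adjusted p = 0.231). The median of the 13 was -0.20, with Snai1 at -0.40, Zeb1 at -0.13 and Grhl2, an activator of claudin genes, at -0.20 (adjusted p = 0.356, 0.863 and 0.632), the last 3 named after their values had been seen.

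Markers of the epithelial cells themselves and of other cells in the gland were read in the same way. Of 12 luminal markers measured, 2 were higher and none lower at an unadjusted p under 0.05, and none was called. Their median difference was 0.13, and their mean deviation lay at -0.11 to 0.17 on KO arrays and -0.20 to 0.062 on WT arrays. Of 11 basal markers none had an unadjusted p under 0.05 in limma, and their median was 0.052. All 8 immune markers measured were lower in KO, with a median of -0.62 and none called or under an unadjusted p of 0.05 in limma. The groups overlapped, as their mean deviation lay at -0.85 to 0.25 on KO arrays and at 1.15, 0.66 and -0.50 on WT1, WT2 and WT3. Of 5 adipocyte markers measured, 1 was higher at that limit and none was called.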

How the data were processed

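Total RNA of mammary epithelial organoids from 3 Wwox KO and 3 WT mice was hybridised to Affymetrix arrays, a single mouse on each. What the authors deposited are RMA values on the log2 scale; the version of RMA is not given in the sources used here. For quality control and normalization their methods name simpleaffy, and for testing limma. These log2 values were used as deposited. Of 45101 probe sets, 64 Affymetrix controls were left out of the tests and served only for the checks of RNA quality. Probe sets were named through the platform annotation, which gives 1 gene symbol for 34945, several for 932 and none for 9160, and only the first kind named a gene. The brightest probe set of a gene has the highest mean of 6 arrays among those of the gene. Promoter windows came from RefSeq tables on GRCm38.p6, and levels were not compared between probe sets.

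KO minus WT was fitted with lmFit and eBayes of limma 3.58.1, in R 4.3.3, with no covariate and with Benjamini-Hochberg adjustment over all 45037 probe sets. The limits for a call, an unadjusted p under 0.01 and 2-fold, are those of the study. The step was tested on simulated data. Named were all probe sets of the 9 genes, Wwox, the called genes of the junction lists or, where none was called, up to 3 with the smallest p, and the 3 nearest genes of the 2 members with the smallest p. Other genes are said to be named after their values were seen. The members and lists were chosen with earlier results of these data known. Alternatives were quantile and cyclic loess normalization, centring on 48 ribosomal protein genes or 6 epithelial genes, a minimum mean of 6, other variance models, a replicate block, 2 RNA quality covariates, each array left out in turn, and other call limits. Python 3.11.15 and matplotlib 3.10.9 drew the figures.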

Additional observations from a re-analysis of the deposited data

How the results depend on the processing

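None of the 18 claudin and occludin probe sets was called with all 6 arrays under limma, and 6 had an unadjusted p under 0.05. With array weights 1 was called, with p under 0.01 and no limit on fold 1, with p under 0.05 and 1.5-fold 3, and 0 to 2 with 1 array left out, the 2 being Cldn3 probe sets without WT1. The count at an unadjusted p under 0.05 was 2 without moderation of the variance, 2 with the RNA quality covariate of Gapdh and β-actin, 1 with that of 4 transcripts, and 3 to 11 with 1 array left out, highest without WT1 and lowest without WT2. For these alternatives the share over all probe sets was not counted, so the counts cannot be read as particular to the claudins. With the 2-transcript covariate the signs turned for 9 member probe sets, all 4 of Cldn3 (including 1434651_a_at at -0.70 and 1426332_a_at at -0.59), those of Cldn4, Cldn7 and Cldn10 and the 2 dim ones of Cldn1. They also turned for St14 (-0.072) and the scaffold gene Sympk (-0.33, against 0.84 without it), named for this change. Among the other claudins and tight junction genes the 1 call, Cldn5, became 4 at p under 0.01 with no limit on fold, 6 at p under 0.05 and 1.5-fold, 2 when any probe set of a gene counted, and 1 to 2 with 1 array left out, where Sympk joined without WT1. The causes were not tested.

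Deviations of same-numbered KO and WT arrays from their group means had r of -0.16, 0.16 and 0.10 over all probe sets. Those of differently numbered arrays had r of -0.26 to 0.20. Pairing by number was thus not shown, and so few arrays cannot exclude it. With the replicate block, 0 member probe sets were called, 6 had an unadjusted p under 0.05, and 1 other junction gene was called. Centring on epithelial genes moved the median difference of all probe sets to -0.19, against -0.034 without it, and 7 member probe sets then had an unadjusted p under 0.05. Other settings left the counts within 1.5 times. The dim Cldn1 and Cldn2 probe sets lay near the floor of the arrays, which limits what they can show.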
